A study of Rattus norvegicus with 5 samples.

Results

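Serotonin reaches the ventral tegmental area (VTA) from the raphe nuclei and acts there through receptors that differ in what they couple to. The 8 receptor genes described here, *Htr1a*, *Htr1b*, *Htr1d*, *Htr2a*, *Htr2c*, *Htr3a*, *Htr4* and *Htr7*, were taken by gene name from the 32883 genes counted, and all 8 were found. They were followed across dopamine, GABA and glutamate neurons and non-neuronal cells in single-nuclei RNA sequencing (snRNA-seq) of VTA punches from 5 adult male Sprague-Dawley rats, with 1 library per rat and both hemispheres combined. All rats were of 1 condition, given as saline by the sample labels and as drug-naïve by the paper, so no treatment was compared. The punches hold whatever cells lie in and around the VTA, and nuclear RNA need not follow the RNA or protein of the whole cell.

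Receptors of the 1 family (*Htr1a*, *Htr1b*, *Htr1d*) couple to inhibitory G proteins, lower cyclic AMP and can open potassium channels, and *Htr1b* and *Htr1d* are best known as receptors on axon terminals. Receptors of the 2 family (*Htr2a*, *Htr2c*) couple to Gq and phospholipase C. *Htr4* and *Htr7* couple to Gs and raise cyclic AMP. *Htr3a* differs from the rest, since it encodes a subunit of a cation channel that serotonin opens directly. In the VTA, serotonin acting at *Htr2c* is known for restraining dopamine neurons, largely by way of GABA neurons.

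Barcodes told nuclei apart, and molecules were counted by their unique molecular identifiers (UMIs). The rule of at least 1000 UMIs, more than 200 and fewer than 5000 genes and under 5% mitochondrial UMIs kept 22084 nuclei, 1813, 9336, 2284, 4823 and 3828 in rats 1 to 5, from libraries of 10193355 to 88576210 UMIs. Pairs of libraries shared 0 to 16 barcodes among these nuclei. After removal of likely doublets, clusters were named from marker genes, and the names below stand for clusters that were like these cell types. They held 954 dopamine-like, 2600 GABA-like and 933 glutamate-like neurons, and, among non-neuronal nuclei, 8728 of oligodendrocytes, 795 of their precursors (OPCs), 600 of microglia, 1057 of astrocytes and 386 of vessels. Among the markers that named the dopamine-like class, the genes of dopamine synthesis and reuptake were both detected: *Th* stood at 6.22 UMIs per 10000 in dopamine-like neurons and at 0.606 in GABA-like neurons, and *Slc6a3* at 7.70 and 0.540. Levels are given as UMIs of a gene per 10000 UMIs of a class in a rat, with the SD between rats. Sums of fewer than 20 nuclei were left out, which removed the 4 dopamine-like nuclei of rat 1 and the 8 vascular nuclei of rat 3, so n = 4 rats for these 2 classes and 5 for the others. Counts were not scaled to transcript length, so levels are compared between classes and not between receptors.

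Rat 3 stood apart from the other libraries before any receptor was considered. It had the fewest UMIs and the lowest median per nucleus, 1605.5 against 1829 to 3526, and in 12 sub-clusters drawn among the neuronal clusters 95.6% to 100% of the nuclei came from it. Each main result was therefore also computed without it. Much of the library of rat 1 was removed as well. The mitochondrial limit took out 3117 of its barcodes, and of the 1813 kept, 1071 were later left out in mixed clusters. Empty droplets held receptor RNA as well: barcodes under 100 UMIs gave 1.93 ± 0.883 (SD, n = 5) *Htr2c* and 0.283 ± 0.184 *Htr4* UMIs per 10000. Oligodendrocytes, in which these neuronal genes should be low, are given below for comparison, but they are not the neurons' own background: from genes of other cell types, free RNA could make up at most 6.82% to 28.0% of their UMIs and 5.67% to 11.8% of those of dopamine-like neurons.

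The receptors fell into those with many counts and those with few. In the 22084 nuclei, *Htr2c* (ENSRNOG00000030877) had 32905 UMIs, *Htr4* (ENSRNOG00000019134) 6937 and *Htr2a* (ENSRNOG00000010063) 1521. *Htr3a* had 221, *Htr1a* 149, *Htr1b* 64, *Htr7* 48 and *Htr1d* 4. Of the 8, *Htr2c*, *Htr4* and *Htr2a* passed the filter on low counts, which kept 11736 genes, and could be tested in the main fit. That fit, edgeR's quasi-likelihood test on UMIs summed per rat and class with the rat as a block, compared the 8 classes in 28 pairs. For the 3 receptors it gave 54 of 84 differences with an adjusted p under 0.05, or 48 without rat 3, where 45.4% of all genes and pairs passed. Of the neurons of the 3 classes, 73.2% ± 16.7 (SD, n = 5) had a UMI of any of the 8 receptors and 46.5% to 84.5% in single rats, against 11.1% of oligodendrocytes. With each nucleus thinned to 1000 UMIs, so that depth was equal, the shares were 45.2% ± 8.80 and 3.60%.

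The upstream sequence of *Htr2c* is shown because this receptor differed most between the neuron classes and its gene lies on the X chromosome, present once in these males. It is the 250 bases before the annotated start in RefSeq (assembly GRCr8), chrX:115452940-115453189 on the plus strand, with each CG in capitals. No readout of the data lies on it.
Htr2c: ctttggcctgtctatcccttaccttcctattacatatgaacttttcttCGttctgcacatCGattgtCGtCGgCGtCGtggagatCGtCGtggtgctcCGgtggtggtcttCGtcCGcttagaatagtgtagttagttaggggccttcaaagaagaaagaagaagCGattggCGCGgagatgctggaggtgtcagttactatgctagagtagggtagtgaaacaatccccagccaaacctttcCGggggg
It holds 15 CG, more than 74.2% of the 33469 upstream windows of this length in that table, whose median is 5, and no TATAAA on either strand, which 12.9% of them hold. Of the 8 genes, 4 were in the table. The windows of *Htr1b*, *Htr1d* and *Htr7*, receptors that were all close to the detection limit here, hold 7, 18 and 38 CG and no TATAAA.

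*Htr2c* was high in GABA-like and glutamate-like neurons and low in dopamine-like neurons, at a level like that of oligodendrocytes, OPCs and astrocytes. In GABA-like neurons of rats 1 to 5 it stood at 9.62, 9.94, 8.81, 18.3 and 14.3 UMIs per 10000, a mean of 12.2 ± 4.01 (SD, n = 5). In glutamate-like neurons the 5 rats gave 6.85, 3.57, 2.34, 10.0 and 7.99, a mean of 6.15 ± 3.16. In dopamine-like neurons of rats 2 to 5 it was 0.293, 0.225, 0.155 and 0.327, a mean of 0.25 ± 0.0759 (SD, n = 4). The dopamine-like values thus lay below every value of the other neuron classes, in every rat. They lay instead among those of oligodendrocytes, at 0.302 ± 0.169 (SD, n = 5), of OPCs, at 0.342 ± 0.186, and of astrocytes, at 0.276 ± 0.181. Free RNA could give dopamine-like neurons at most 0.130, 0.0647, 0.161 and 0.145 in rats 2 to 5. The observed level was 2.25, 3.48, 0.963 and 2.25 times this limit. In oligodendrocytes of rats 1 to 5 it was 1.27, 0.979, 1.91, 0.574 and 0.785 times their own limit. The source of these UMIs was not tested.

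The fitted level of *Htr2c* in dopamine-like neurons was 45.6 times lower than in GABA-like neurons (log2 fold change -5.51 ± 0.47 SE, adjusted p = 1.22e-12, edgeR) and 21.8 times lower than in glutamate-like neurons (-4.45 ± 0.46, adjusted p = 4.94e-10). It was lower in 4 of 4 rats in both comparisons. Of all genes tested, 7.63% were lower in dopamine-like than in GABA-like neurons and 5.85% lower than in glutamate-like neurons. Both calls held under all 17 alternatives, without rat 3 included (-5.58 and -4.64). The size depended on how neurons were classed and on free RNA: it was -2.93 and -1.86 when each neuron was typed by its own transmitter UMIs and -6.59 and -5.56 after subtraction of free RNA. Against oligodendrocytes the difference of dopamine-like neurons was -0.45 ± 0.47 (adjusted p = 0.405), and dopamine-like neurons were higher than 0 of the 5 non-neuronal classes with an adjusted p under 0.05 and lower than 1, microglia (-1.89 ± 0.53, adjusted p = 0.00224). The percent of all genes that differed was 66.5% against oligodendrocytes, 43.8% against OPCs, 56.6% against astrocytes, 57.0% against microglia and 55.3% against vascular nuclei. Free RNA could make up at most 30.8%, 47.6%, 12.6%, 19.8% and 25.8% of the UMIs of microglia in rats 1 to 5. These limits are above those of dopamine-like neurons, and the source of the *Htr2c* UMIs in microglia was not tested.

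Not all nuclei with dopamine genes were in that class. A cluster of 1193 nuclei that had *Slc6a3*, *Th* and *Slc18a2* among its 10 leading genes was left out as mixed, and it was larger than the class itself. Its median nucleus had 1228 UMIs, against 6238 in the class, and 4.11% mitochondrial UMIs, and 1065 of its nuclei were of rat 2. In rats 1, 2 and 5, which gave at least 20 of its nuclei, *Htr2c* stood at 1.32, 1.24 and 0.505 UMIs per 10000, where free RNA of these rats had 2.84, 1.10 and 1.77. *Htr4* stood at 0.240, 0.0612 and 0.126, below its level in the class. With the cluster joined to the dopamine-like class, *Htr2c* was still lower than in GABA-like (-4.88, adjusted p = 1.23e-10, edgeR) and glutamate-like neurons (-3.78, adjusted p = 6.92e-08, edgeR). It then differed from oligodendrocytes by 0.02 ± 0.47 (adjusted p = 0.976, edgeR).

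The UMIs within nuclei showed the same contrast. Among GABA-like neurons with *Htr2c*, the median nucleus had 7 UMIs and the highest 124, and 666 of 2600 had at least 10. Among the 73 dopamine-like neurons with *Htr2c*, 71.2% had a single UMI, and 3 nuclei with at least 10 held 52 of the 164 UMIs of the class. Thinned to equal depth, 43.7% ± 9.83 (SD, n = 5) of GABA-like, 27.9% ± 12.1 of glutamate-like and 1.82% ± 0.499 (SD, n = 4) of dopamine-like neurons had an *Htr2c* UMI, against 2.57% ± 0.708 of oligodendrocytes. As counted, the shares were 60.0%, 45.6%, 8.63% and 8.02%. The median UMIs per nucleus, taken in each rat and then as the median over rats, were 7293, 7779, 8628 and 2727.

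**Figure D1:**
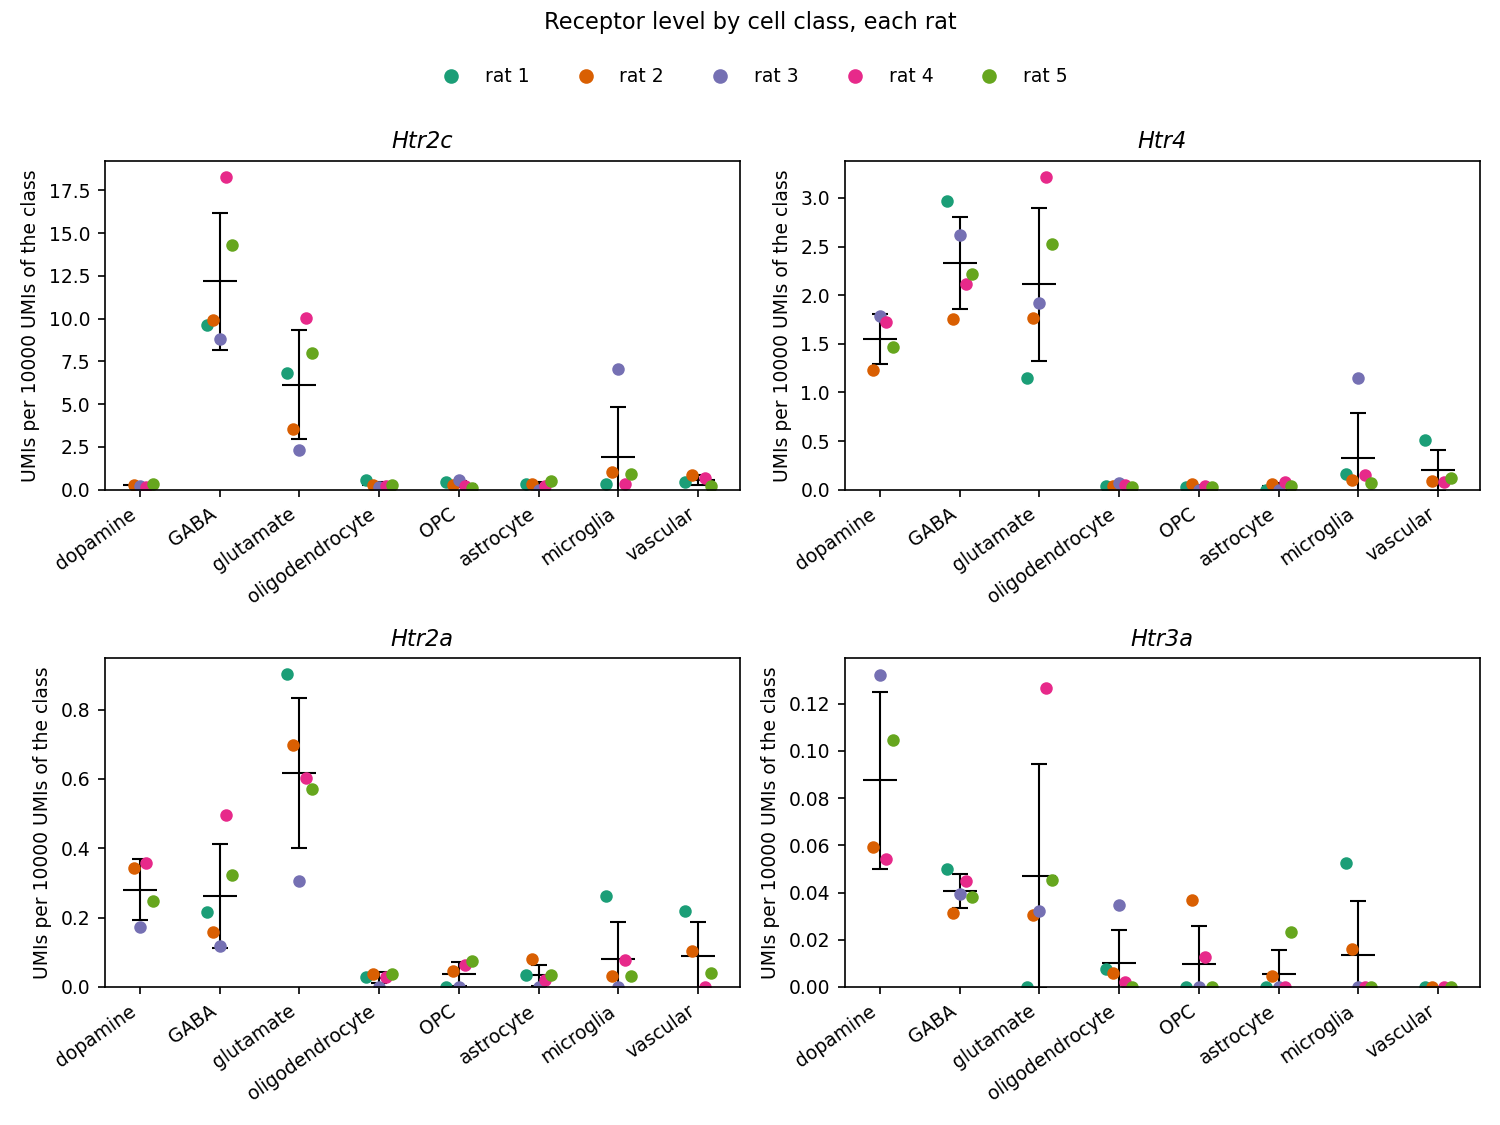
Level of *Htr2c*, *Htr4*, *Htr2a* and *Htr3a* as UMIs per 10000 UMIs of the class (linear vertical axes, each with its own range) in 8 cell classes (horizontal axis), with 1 point per rat, the mean as a bar and the SD between rats as whiskers, cut at 0. *Htr2c* is high in GABA and glutamate neurons and near 0.25 in dopamine neurons, *Htr4* is in all 3 neuron classes, *Htr2a* is highest in glutamate neurons, and the microglia of rat 3 lie far above those of the other rats for *Htr2c* and *Htr4*.

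GABA-like neurons had more *Htr2c* than glutamate-like neurons in 5 of 5 rats, but the test across genes did not separate them. The fold change was 2.09 (log2 1.07 ± 0.33 SE, approximate 95% interval 0.41 to 1.72, adjusted p = 0.0523, edgeR). Of the 17 alternatives, 6 brought the adjusted p under 0.05, among them the fit to neuron classes alone (1.12, adjusted p = 0.00143) and thinned counts (1.19, adjusted p = 6.12e-06), and the direction was the same in all 17. Among all genes, 2.76% were higher in GABA-like than in glutamate-like neurons.

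*Htr2a*, which also couples to Gq, was distributed differently from *Htr2c* and was highest in glutamate-like neurons. There the rats gave 0.902, 0.699, 0.306, 0.604 and 0.572 UMIs per 10000, a mean of 0.617 ± 0.216 (SD, n = 5). GABA-like neurons gave 0.217, 0.159, 0.118, 0.495 and 0.323, a mean of 0.262 ± 0.151. Dopamine-like neurons of rats 2 to 5 gave 0.344, 0.172, 0.358 and 0.248, a mean of 0.281 ± 0.0874 (SD, n = 4). The ranges overlapped between rats, but within each rat the glutamate-like value was the higher one.

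*Htr2a* was 1.93 times lower in dopamine-like than in glutamate-like neurons (log2 -0.95 ± 0.26 SE, adjusted p = 0.00815, edgeR, lower in 4 of 4 rats). It was 2.17 times lower in GABA-like than in glutamate-like neurons (-1.12 ± 0.23, adjusted p = 0.000999, edgeR, lower in 5 of 5 rats), a direction shared by 2.37% of all genes. Without rat 3 the values were -0.97 (adjusted p = 0.0246) and -1.10 (adjusted p = 0.00803). Both calls were lost without the rat block (-0.99 and -1.11, adjusted p = 0.227 and 0.198), after subtraction of free RNA (-1.03 and -1.22, adjusted p = 0.236 and 0.169) and with neurons typed by their own UMIs, where the differences shrank to -0.26 and -0.38. The first was also lost without rat 5 (-0.89, adjusted p = 0.085) and without sub-clusters led by a marker of another class (-0.61, adjusted p = 0.132), and the second without rat 2 (-0.77, adjusted p = 0.0522). Between dopamine-like and GABA-like neurons *Htr2a* differed by 0.17 ± 0.25 SE (approximate 95% interval -0.32 to 0.67, adjusted p = 0.754), an interval that leaves room for a difference in either direction.

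In contrast to *Htr2c*, *Htr2a* in dopamine-like neurons stood above every non-neuronal class, in 5 of 5 comparisons (adjusted p under 0.05). Against oligodendrocytes, at 0.0272 ± 0.0158 UMIs per 10000 (SD, n = 5), the log2 difference was 3.04 ± 0.30 (adjusted p = 4.79e-12, edgeR). Thinned shares were 2.72% ± 0.718 (SD, n = 4) of dopamine-like, 2.73% ± 1.22 of GABA-like and 5.27% ± 3.32 (SD, n = 5) of glutamate-like neurons, and 0.348% ± 0.202 of oligodendrocytes. Few nuclei carried more than a trace: of the 175 glutamate-like neurons with *Htr2a*, 58.3% had 1 UMI, and the highest had 15.

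*Htr4*, coupled to Gs, was present at similar levels in all 3 neuron classes. GABA-like neurons of rats 1 to 5 had 2.97, 1.75, 2.62, 2.11 and 2.22 UMIs per 10000, a mean of 2.33 ± 0.471 (SD, n = 5). Glutamate-like neurons had 1.15, 1.77, 1.92, 3.21 and 2.53, a mean of 2.11 ± 0.786. Dopamine-like neurons of rats 2 to 5 had 1.23, 1.79, 1.72 and 1.46, a mean of 1.55 ± 0.255 (SD, n = 4). The 3 ranges overlapped, and within rats 2 to 5 the dopamine-like value was the lowest of the 3.

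The difference of dopamine-like from GABA-like neurons, 1.46-fold lower (log2 -0.55 ± 0.19 SE, lower in 4 of 4 rats), was at the edge of the test (adjusted p = 0.0437, edgeR). It kept its direction under all 17 alternatives and its call under 8, among them the one with the left-out cluster joined to the class, where it was -1.0 (adjusted p = 0.00456). It lost the call without rat 2 (adjusted p = 0.09), rat 3 (0.0598), rat 4 (0.0604) or rat 5 (0.218), in DESeq2's Wald test (0.347), without the rat block (0.747), after subtraction of free RNA (0.592), and with thinned counts or neurons typed by their own UMIs (0.235 in each). The difference itself was -0.55 to -0.62 without each of these rats, -0.57 in DESeq2, -0.53 without the block, -0.56 after subtraction of free RNA, -0.41 thinned and -0.37 with own typing. Against glutamate-like neurons the difference was -0.43 ± 0.19 (approximate 95% interval -0.81 to -0.05, adjusted p = 0.161), a call that was gained without rat 1 (adjusted p = 0.0228) and with the left-out cluster joined (-0.79, adjusted p = 0.0324). Between GABA-like and glutamate-like neurons it was 0.11 ± 0.18 (interval -0.24 to 0.46, adjusted p = 0.97). In dopamine-like neurons *Htr4* stood above 5 of 5 non-neuronal classes. It was 4.998 ± 0.254 log2 units above oligodendrocytes (adjusted p = 4.81e-21, edgeR), which had 0.0449 ± 0.0145 UMIs per 10000. Thinned shares were 12.4% ± 3.42 (SD, n = 4) of dopamine-like, 17.6% ± 1.69 of GABA-like and 16.3% ± 5.89 (SD, n = 5) of glutamate-like neurons, and 0.315% ± 0.186 of oligodendrocytes.

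**Figure D2:**
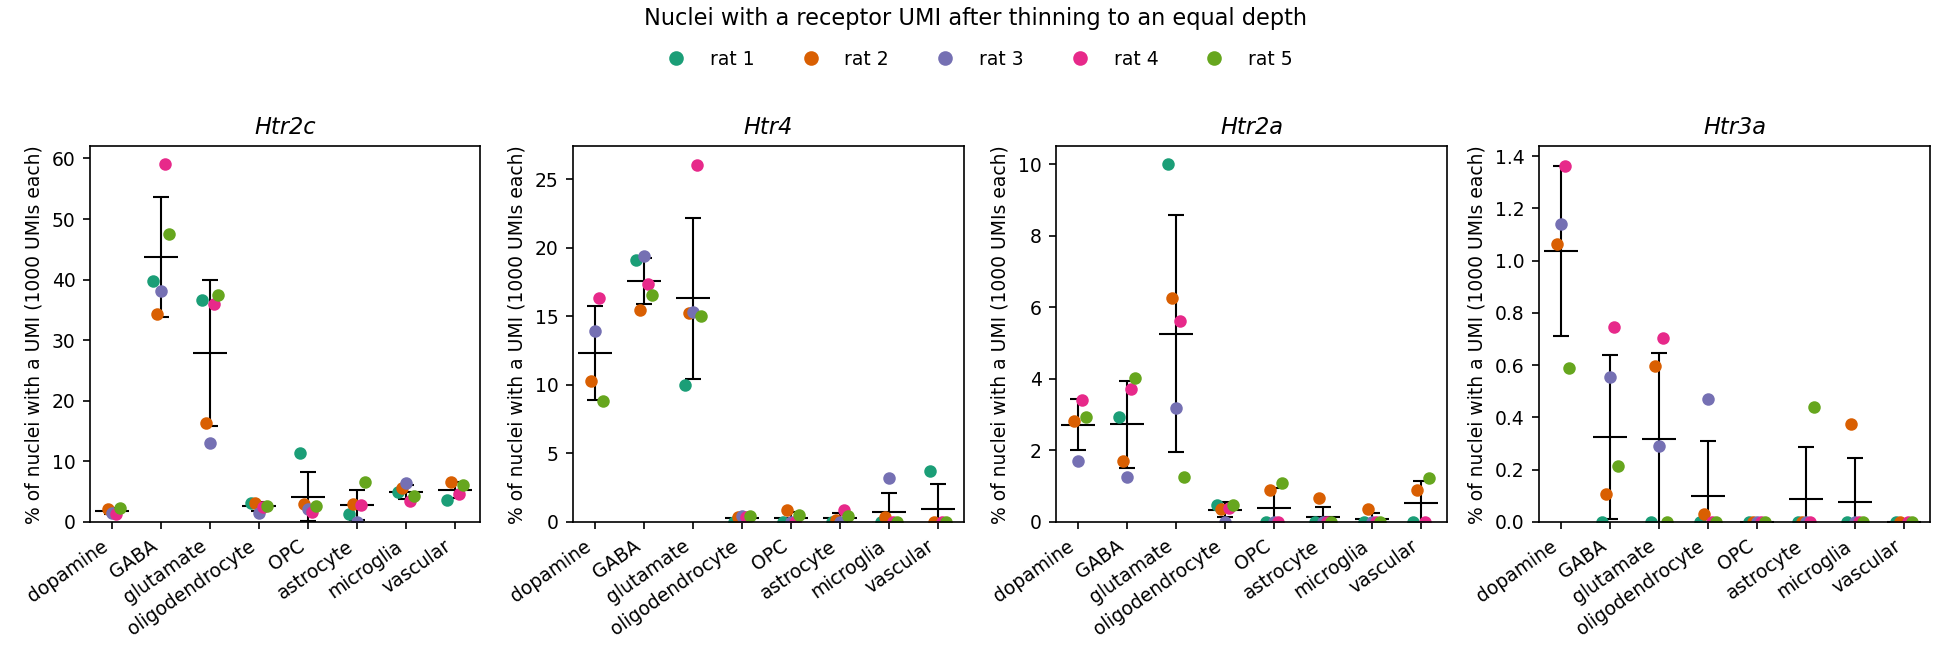
Percent of nuclei with at least 1 UMI of *Htr2c*, *Htr4*, *Htr2a* or *Htr3a* after each nucleus was thinned to 1000 UMIs (linear vertical axes, each with its own range) in 8 classes (horizontal axis), with 1 point per rat, the mean as a bar and the SD as whiskers. For *Htr2c* dopamine neurons, at 1.82%, lie with the oligodendrocytes at 2.57%, whereas for *Htr4* they lie at 12.4% against 0.315%.

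*Htr7*, the other receptor coupled to Gs, was close to the detection limit. It had 48 UMIs in all, each in a different nucleus, of which 5 lay in dopamine-like, 11 in GABA-like and 3 in glutamate-like neurons and 15 in oligodendrocytes. Its levels, 0.0100 ± 0.00871 UMIs per 10000 (SD, n = 4) in dopamine-like neurons and 0.0116 ± 0.0133 (SD, n = 5) in oligodendrocytes, differed by less than the SD between rats. The latter mean rested on 1 UMI of rat 3, without which it was 0.00579 ± 0.00397 (n = 4), against 0.00893 ± 0.0104 (n = 3) in dopamine-like neurons. No difference of *Htr7* between these classes was detectable at this depth.

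*Htr3a*, the channel subunit, had few counts, and its highest mean was in dopamine-like neurons. Rats 2 to 5 gave 0.0594, 0.132, 0.0540 and 0.104 UMIs per 10000 there, from 15, 10, 8 and 16 UMIs, a mean of 0.0875 ± 0.0374 (SD, n = 4). GABA-like neurons gave 0.0407 ± 0.00708 (SD, n = 5, from 60 UMIs), and glutamate-like neurons 0.0469 ± 0.0476 (29 UMIs). All 4 dopamine-like values lay above all 5 GABA-like values, which ran from 0.0312 to 0.050, but among glutamate-like neurons rat 4 reached 0.127. In oligodendrocytes it was 0.0100 ± 0.0141, a mean that rested on 1 UMI of rat 3 and was 0.00389 ± 0.00351 (n = 4) without it, whereas free RNA had 0.0661 ± 0.0297. *Htr3a* did not pass the filter on low counts. In the fit without that filter, in which 5.1% of the 23945 genes were higher in dopamine-like than in GABA-like neurons, its log2 difference was 1.07 ± 0.38 (adjusted p = 0.047, edgeR). Against glutamate-like neurons it was 0.61 ± 0.42 (adjusted p = 0.619). The fit without a filter gave smaller SEs than the main fit for the receptors in both. For *Htr2c* between dopamine-like and GABA-like neurons the SE was 0.203 against 0.470. Its adjusted p values are thus less strict than those of the main fit, and the *Htr3a* call was at the edge. Thinned shares were 1.04% ± 0.325 of dopamine-like (SD, n = 4), 0.324% ± 0.314 of GABA-like neurons and 0.101% ± 0.208 of oligodendrocytes.

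The receptors coupled to inhibitory G proteins had few UMIs in these nuclei. Since levels are not compared between receptors, this does not show that they were expressed less than the others. *Htr1a* had 55 UMIs in GABA-like, 14 in glutamate-like and 2 in dopamine-like neurons. Per 10000 UMIs this was 0.0236 ± 0.0187 and 0.0256 ± 0.0222 (SD, n = 5) in the first 2 classes and 0.00198 ± 0.00396 (SD, n = 4) in dopamine-like neurons, where rats 3, 4 and 5 had 0. Oligodendrocytes, with 27 UMIs, stood at 0.00853 ± 0.00652. In the fit without a filter *Htr1a* was lower in dopamine-like than in GABA-like neurons (log2 -3.12 ± 0.79, adjusted p = 0.00134, edgeR) and than in glutamate-like neurons (-2.90 ± 0.91, adjusted p = 0.0218, edgeR), where 5.01% and 3.85% of genes were lower. With 2 UMIs in dopamine-like neurons these fold changes rest on few molecules, and the adjusted p values of this fit are less strict, as given for *Htr3a*. Nor was *Htr1a* spread over the GABA-like class. Of its 55 UMIs there, 30 lay in a sub-cluster led by *Sox6* and 14 in rat 2 nuclei of one led by *Pax3*. The median over 14 GABA-like sub-clusters was 0.00553, against at most 0.00547 in a dopamine-like one. *Htr1b* had 15 UMIs in GABA-like and 5 in glutamate-like neurons and none in 950 dopamine-like neurons, where a count of 0 allows up to 0.00477 UMIs per 10000 over the class (3 counts). Its level in GABA-like neurons, 0.0128 ± 0.0119 (SD, n = 5), lay within 1 SD of that in oligodendrocytes, 0.00649 ± 0.00918. Both means were raised by rat 1, with 2 and 6 UMIs, and without it they were 0.00765 ± 0.00381 and 0.00245 ± 0.00188 (SD, n = 4). *Htr1d* had 4 UMIs in all nuclei together, 2 of them in GABA-like neurons, 1 in glutamate-like neurons and 1 in clusters left out.

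**Figure D3:**
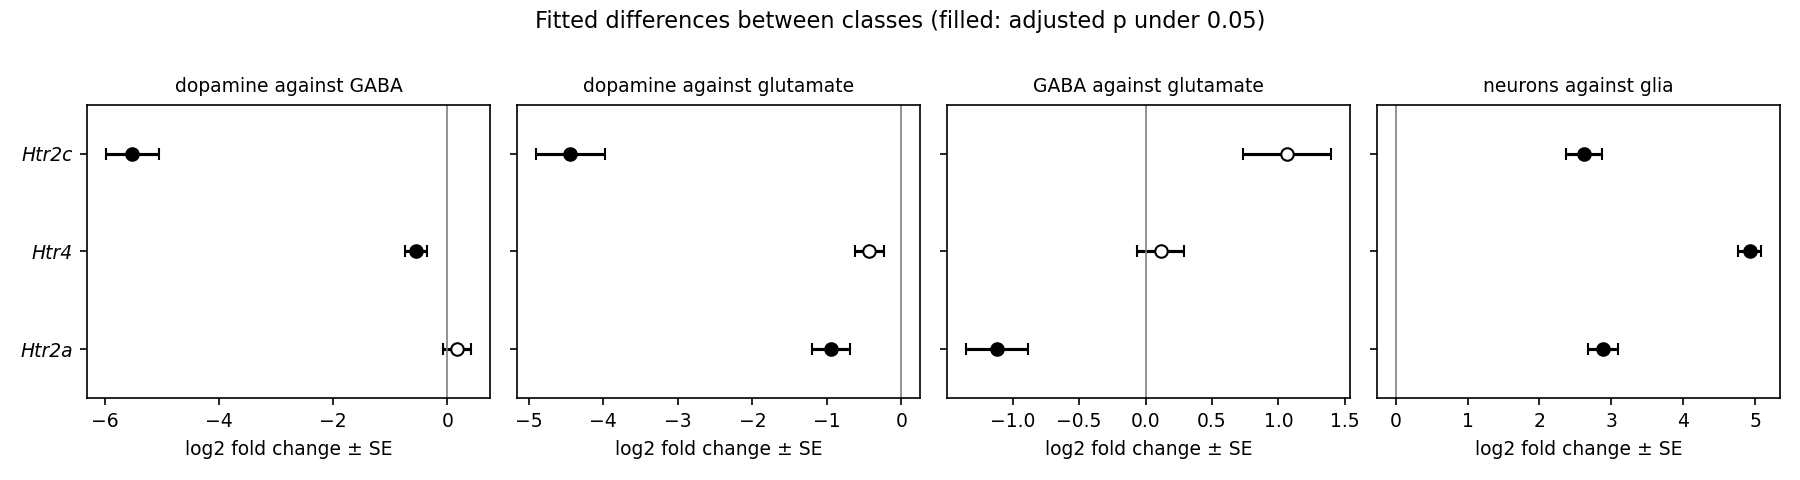
Fitted log2 fold change (points, horizontal axis) with its SE (bars) for the 3 receptors that passed the filter on low counts, in 3 comparisons between neuron classes and in neurons against glia (each panel has its own range and a vertical line at 0). Filled points have an adjusted p under 0.05 in edgeR: *Htr2c* stands at -5.51 and -4.45 in dopamine neurons, *Htr2a* at -0.95 and -1.12 against glutamate neurons.

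Compared with the mean of oligodendrocytes, OPCs, astrocytes and microglia, the mean of the 3 neuron classes was higher for the 3 receptors tested. The log2 differences were 4.92 ± 0.16 SE for *Htr4* (adjusted p = 1.57e-27, edgeR), 2.88 ± 0.20 for *Htr2a* (adjusted p = 1.33e-16) and 2.63 ± 0.25 for *Htr2c* (adjusted p = 1.63e-12). This direction was common, with 35.5% of all genes higher in neurons. A gene could pass the filter on low counts through the neuron sums alone, so the shared direction of these 3 is not support. In the fit without that filter, *Htr3a* was also higher in neurons (2.48 ± 0.35, adjusted p = 7.03e-12, edgeR). *Htr1a* (0.58 ± 0.63), *Htr1b* (-0.23 ± 0.31), *Htr7* (0.12 ± 0.63) and *Htr1d* did not pass the test there. All 3 calls held under every alternative run, and subtraction of free RNA raised the differences to 8.97, 4.12 and 5.82. The amount subtracted was the upper limit, which in each rat was larger in these glia than in neurons. It reached 52.9% of UMIs in glia and 15.7% in neurons, so the rise is not a test of the difference. For *Htr2c* the mean over neuron classes joins GABA-like and glutamate-like neurons with dopamine-like neurons, which were higher than 0 of the 5 non-neuronal classes.

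In order of mean level, *Htr2c* ran from GABA-like and glutamate-like neurons through microglia, vascular nuclei, OPCs, oligodendrocytes and astrocytes to dopamine-like neurons. The step from glutamate-like neurons to microglia passed the test (log2 2.55, adjusted p = 3.35e-06, edgeR, where 56.4% of all genes differed), and no other step between neighbours did. For *Htr4* the order was GABA-like, glutamate-like and dopamine-like neurons, microglia, vascular nuclei, oligodendrocytes, astrocytes and OPCs. Here the steps from dopamine-like neurons to microglia (3.38, adjusted p = 1.92e-11, edgeR) and from vascular nuclei to oligodendrocytes (1.60, adjusted p = 0.0205) passed, where 57.0% and 48.7% of all genes differed. The latter call was lost without rat 1, where oligodendrocytes differed from vascular nuclei by -1.06 ± 0.61 (adjusted p = 0.161, edgeR). For *Htr2a* glutamate-like neurons came first, followed by dopamine-like and GABA-like neurons and by vascular nuclei, with the steps from glutamate-like to dopamine-like neurons and from GABA-like neurons to vascular nuclei (1.75, adjusted p = 0.00373, edgeR, where 55.9% of all genes differed) past the test. The level of microglia rested on 1 library, although their place for *Htr2c* was the same without it: *Htr2c* was 7.08 UMIs per 10000 in the 31 microglia of rat 3 and 0.316 to 1.02 in the other rats, whose mean was 0.649 ± 0.377 (SD, n = 4). The 43 UMIs of rat 3 lay in 2 nuclei, with 24 and 19. For *Htr4* the microglia of rat 3 had 7 UMIs in 3 nuclei, and without rat 3 microglia, at 0.119 ± 0.0456 (SD, n = 4), came after vascular nuclei, at 0.199. The vascular mean rested in turn on rat 1, with 7 UMIs in 27 nuclei, and was 0.0946 ± 0.0217 (SD, n = 3) without it, so the order of these 2 classes was set by single rats. Without rat 3, *Htr2c* was still lower in dopamine-like neurons than in microglia (-1.26 ± 0.47, adjusted p = 0.0223, edgeR), against -1.89 ± 0.53 with it. The larger possible share of free RNA in microglia, given above, applies to both values.

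The means of GABA-like and glutamate-like neurons covered sub-clusters that differed widely. Neurons were clustered again without any *Htr* gene, and sub-clusters of at least 50 nuclei are named here by their leading genes. Among 14 GABA-like sub-clusters *Htr2c* ran from 0.194 to 32.8 UMIs per 10000, with a median of 10.4. Among 6 glutamate-like ones it ran from 0.167 to 12.8, and among 3 dopamine-like ones from 0.159 to 0.476. The low *Htr2c* of dopamine-like neurons was thus seen in each of their sub-clusters, the one led by *Col24a1*, *Drd2* and *Tmem255a* being the highest. This class needed at least 6 of 8 dopamine markers over 25% of their highest level, a cut set after the sub-clusters were seen. The glutamate-like sub-cluster led by *Casr*, with *Htr2c* at 12.8, had 5 of the 8. The one led by *Slc26a7* and *Npsr1*, with both GABA and glutamate genes, also had 5. These values are given as a description, since the sub-clusters were drawn from the same nuclei.

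With nuclei of all rats pooled, the highest *Htr2c* was in GABA-like neurons led by *Sox6*, *Glis3* and *Corin*, where 95.8% of 238 nuclei had a UMI. Rats 2, 4 and 5, the rats with at least 20 such nuclei, gave 18.2, 39.2 and 37.3 UMIs per 10000. These nuclei were 9.15% of the GABA-like neurons and held 27.6% of their *Htr2c* UMIs, but 0.697% of their *Htr4* UMIs: *Htr4* was 0.143, 0.141 and 0.102 in the same 3 rats. They also held 30 of the 55 *Htr1a* UMIs of GABA-like neurons and had *Htr2a* at 0.287, 1.07 and 0.820 in the 3 rats. GABA-like neurons led by *Calcr*, *Tafa4* and *Npnt* had *Htr2a* at 0.746, 0.417 and 0.84 in the same rats, so neither sub-cluster was the higher in each rat. A sub-cluster led by *Pax5*, *Chrdl1* and *Col4a1* had *Htr2c* at 22.0 with *Htr4* at 0.561, and in rat 2, which gave 45 of its 58 nuclei, its *Htr2c* of 24.3 was above that of the *Sox6* sub-cluster. GABA-like neurons led by *Myo3b*, *Ikzf1* and *Trpc4* had both, with *Htr2c* at 21.1, 16.5 and 21.1 and *Htr4* at 3.42, 2.83 and 2.63 in rats 2, 4 and 5. The highest *Htr4*, 8.57, was in 55 GABA-like neurons led by *Ccdc141*, *Myo5b* and *Frem1*, nearly all of rat 2, in which 96.4% of nuclei had a UMI and *Htr2c* was 12.5. GABA-like neurons led by *Nox4*, *Syt6* and *Meis2* had *Htr2c* at 0.862, 3.36 and 2.62 and *Htr4* at 0.517, 0.811 and 1.04 in rats 2, 4 and 5, the pooled *Htr2c* of 1.42 resting on the 195 of 260 nuclei that were of rat 2. Those led by *Epyc*, *Tcf7l2* and *Cxcl14* had 0.194 and 0.129.

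Glutamate-like neurons divided in a like manner. Those led by *Casr*, *Adgrv1* and *Colec12* had *Htr2c* at 13.5, 10.6 and 14.0 UMIs per 10000 in rats 2, 4 and 5, and 88.9% of their 90 nuclei had a UMI. Those led by *Pdzrn3*, *Ano5* and *Lmx1a* had 5.62, 9.52 and 4.59 and the highest *Htr4* of the class, 2.94. Those led by *Slc17a7*, *Pappa2* and *Rbm20* had *Htr2c* at 0.167 and *Htr4* at 0.357, while their *Htr2a* was 0.977. Their 52 nuclei were all of rat 2, where the *Casr* sub-cluster had *Htr2a* at 1.01. Among dopamine-like neurons the sub-cluster led by *Col24a1* and *Drd2* had *Htr4* at 2.06, 1.69 and 1.82 in rats 2, 4 and 5. The one led by *Tmem207* and *Slc6a3* had 0.99, 1.75 and 1.28, so the ranges of these levels overlapped. The shares of nuclei with an *Htr4* UMI did not overlap. They were 52.6%, 56.1% and 48.6% in the *Col24a1* sub-cluster and 23.8%, 30% and 24.2% in the *Tmem207* sub-cluster. These shares were not adjusted for depth. The *Tmem207* sub-cluster was the deeper one, with a median of 10142 UMIs against 7654 before removal of doublets. Across the dopamine-like class, 19 nuclei with at least 10 *Htr4* UMIs held 261 of its 925.

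**Figure D4:**
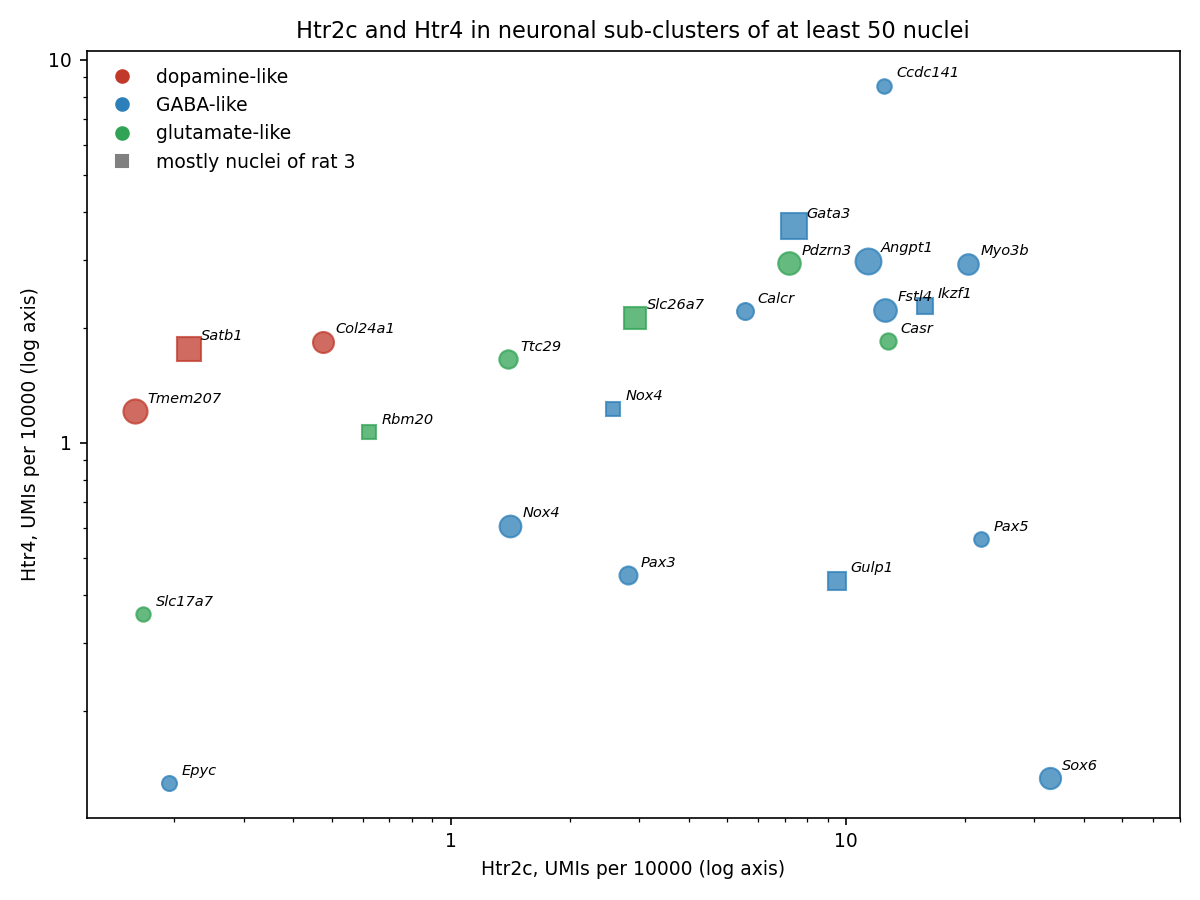
*Htr2c* against *Htr4*, both as UMIs per 10000 on log axes, in the neuronal sub-clusters of at least 50 nuclei, each labelled with its first leading gene, coloured by class and sized by its number of nuclei, with squares for those mostly of rat 3. The 3 dopamine-like sub-clusters lie at the left, under 0.5 for *Htr2c* and between 1.21 and 1.84 for *Htr4*, and the *Sox6* sub-cluster lies at the lower right with 32.8 and 0.133.

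Some nuclei held both *Htr2c* and *Htr4*. Of the 2600 GABA-like nuclei, 731 had a UMI of both, which is 49.7% of those with *Htr2c* and 64.8% of those with *Htr4*, where *Htr4* was seen in 43.4% and *Htr2c* in 56.6% of all GABA-like nuclei. In glutamate-like neurons 182 nuclei had both, 59.9% and 43.5% of the nuclei with *Htr2c* and with *Htr4*. Of all 933 such nuclei, 304 had *Htr2c* and 418 *Htr4*. In dopamine-like neurons 33 had both, 45.2% of those with *Htr2c* and 11.8% of those with *Htr4*. Of all 954 such nuclei, 73 had *Htr2c* and 279 *Htr4*. Nuclei with more UMIs in all are more likely to show both, and these shares were not adjusted for depth. At least 2 of the 8 receptors were seen in 35.2% of GABA-like, 29.4% of glutamate-like and 8.91% of dopamine-like neurons.

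Nuclei outside the 3 classes also carried receptor RNA. The 152 serotonin-like neurons, defined by *Tph2* and *Slc6a4*, had 42 nuclei in rat 2 and 76 in rat 3, where *Htr2c* was 1.29 and 5.19 UMIs per 10000 and *Htr4* 0.196 and 0.529, and fewer than 20 in each other rat. *Htr1a*, known as the autoreceptor of such neurons, had 6 UMIs in them, and *Htr2a* had none. The 236 neurons with both GABA and glutamate genes had *Htr2c* at 9.16 ± 1.63 and *Htr4* at 1.11 ± 0.351 (SD, n = 3 rats with at least 20 nuclei). Neuronal sub-clusters mixed with glia, in no class here, had 530 nuclei, 363 of them of rat 3. They held 2091 *Htr2c* and 376 *Htr4* UMIs, and 57 nuclei of unnamed sub-clusters held 182 and 33. The 3988 nuclei of the mixed clusters left out held 1802 *Htr2c* and 364 *Htr4* UMIs. Among these clusters, those of 1321, 1316 and 1193 nuclei before removal of doublets scored highest as neurons. Their nuclei are in none of the neuronal levels and shares of the main results.

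The genes whose levels followed a receptor most closely over the 26 neuronal sub-clusters compared were found by Pearson's correlation of log2 levels among 8192 genes. For *Htr2c* they included *Edil3* (0.74) and *Rnf128* (0.74). For *Htr4* they were *Fut8* (0.75), *Bbs7* (0.71) and *Spred2* (0.68), and for *Htr2a* *Dgki* (0.77), *Tpst1* (0.71) and *Yes1* (0.70). For *Htr3a*, with few counts, the highest was *Tmem132b* (0.67). Over the 18 sub-clusters not made up of rat 3 the values for these genes were 0.60 to 0.79. The sub-clusters share libraries and differ in depth, so these are descriptions.

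Of the other 6 serotonin receptor genes, only *Htr2b* passed the filter. It was 0.49 ± 0.11 log2 units higher in neurons than in glia (adjusted p = 0.000172, edgeR) and did not differ past the test between neuron classes (adjusted p = 0.199 to 1). RefSeq's table (assembly GRCr8) places *Htr2b* over *Psmd1*, a proteasome gene, so reads of the 2 genes may not be told apart. *Htr5a* had 116 UMIs in all nuclei, and *Htr6*, *Htr1f*, *Htr5b* and *Htr3b* had 60, 43, 43 and 11.

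Genes that make, load and break down serotonin were listed as well, and 5 of 10 were tested. Dopamine-like neurons were higher in 3 of these than both other neuron classes and lower in none (median 1.13 against GABA-like and 1.53 against glutamate-like neurons, with medians of -0.02 and 0.01 over all genes, of which 8.27% and 6.8% were higher). They were *Ddc*, which makes dopamine and serotonin from their precursors (log2 4.99 ± 0.28 against GABA-like neurons), *Slc18a2*, the vesicular transporter of both amines (3.74 ± 0.21), and *Maoa*, which degrades them (1.13 ± 0.18). *Ddc* and *Slc18a2* also served to name the class, so their direction follows from the naming. Between neurons and glia 2 of the 5 were higher and 2 lower, where 35.5% and 36.8% of all genes were. One of the lower genes was *Tph2*, the enzyme specific to neuronal serotonin synthesis, at -1.56 ± 0.24. *Tph2* served to name the serotonin-like class, which was in neither group, so this value is a description. In free RNA it stood at 0.810 ± 0.261 UMIs per 10000.

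Among 35 genes of receptor coupling, 33 were tested. *Gnas*, which encodes the alpha subunit of Gs, was counted under 2 identifiers and is left out of the counts that follow, which cover the other 32. Between dopamine-like and GABA-like neurons 11 were higher and 5 lower, where 8.27% and 7.63% of all genes were, with a median difference of -0.06 against -0.02 for all genes. Between dopamine-like and glutamate-like neurons 8 were higher and 4 lower (6.8% and 5.85% of all genes, median 0.13 against 0.01), and between GABA-like and glutamate-like neurons 1 was higher and none lower (median -0.0029 against 0.02). Those furthest past the test in dopamine-like neurons included the potassium channel subunits that Gi-coupled receptors open, *Kcnj6* (2.30 ± 0.21 against GABA-like neurons) and *Kcnj5* (2.71 ± 0.32). Of the other listed subunits of these channels, *Kcnj3* was lower in dopamine-like neurons (-1.40 ± 0.25 against GABA-like and -1.92 ± 0.26 against glutamate-like neurons), and *Kcnj9* stood at -0.66 ± 0.26 against GABA-like neurons (adjusted p = 0.077, edgeR). The adenylyl cyclases *Adcy8* (-2.70 ± 0.23) and *Adcy2* (-2.76 ± 0.27) were lower. Of the other 3 listed cyclases, named after their values were seen, *Adcy1* was lower (-0.64 ± 0.19, and -0.88 ± 0.20 against glutamate-like neurons), *Adcy5* was higher (0.48 ± 0.15 and 0.62 ± 0.16) and *Adcy9* stood at -0.04 ± 0.15 (adjusted p = 0.937, edgeR). Against glutamate-like neurons the genes furthest past the test were again *Kcnj6* (1.75 ± 0.22), *Adcy8* (-2.94 ± 0.23) and *Adcy2* (-3.06 ± 0.28), together with *Itpr1*, a calcium release channel downstream of Gq (1.56 ± 0.20). The gene that differed between GABA-like and glutamate-like neurons was *Rgs12*, a regulator of G-protein signalling (1.42 ± 0.33). Between neurons and glia 20 were higher and 8 lower (35.5% and 36.8% of all genes, median 0.71 against -0.04), led by *Itpr2* (-4.01 ± 0.12), *Rapgef4* (3.39 ± 0.13), *Plcb4* (1.90 ± 0.09) and *Kcnj3* (3.47 ± 0.16). The 2 identifiers of *Gnas* gave opposite directions there (0.45 ± 0.14 and -0.28 ± 0.12), and -0.44 ± 0.22 (adjusted p = 0.197, edgeR) and -0.68 ± 0.21 (adjusted p = 0.0193) between dopamine-like and GABA-like neurons, so no direction is given for this gene.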

How the data were processed

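The authors deposited UMI counts per gene and barcode for all droplets, made with Cell Ranger (version 8.0.1 in the submitters' processing notes, 4 in the matrix headers) before SoupX, filtering or integration. The genome build and annotation are not given in the sources used here. Nuclei passed the rule given with the results. Its minimum of 1000 UMIs is not one of the study's thresholds, and the study set its upper limit on genes after SoupX, whereas here it was set on uncorrected counts. Scrublet's automatic threshold marked 8 nuclei in all, so the highest scores were removed instead, at 0.8% per 1000 nuclei. Counts were clustered with scanpy 1.11.5 and leidenalg 0.10.2 (2000 variable genes without *Htr* and mitochondrial genes, 30 principal components, 20 neighbours, resolution 1.0, libraries not integrated), and 3988 nuclei of mixed clusters were left out. Neurons were clustered again and classed by summed transmitter genes, or as dopamine-like by at least 6 of 8 dopamine markers. These cuts were set after the sub-clusters were seen. UMIs were summed per rat and class (38 sums of at least 20 nuclei) and tested with edgeR 4.0.16 (TMM, filterByExpr, quasi-likelihood, rat as block, Benjamini-Hochberg over all genes tested). SEs were derived from the F statistic. The sums of a rat come from the same animal, which is where the pairing comes from, and their deviations from class means correlated at 0.268 to 0.833 between neuron classes. DESeq2 1.42.0 served as an alternative. Alternatives were other normalizations, no filter, no rat block, each rat left out, a minimum of 2000 UMIs, doublets kept, free RNA subtracted, thinning to 1000 UMIs, neuron classes alone, neurons typed by their own UMIs and, chosen after seeing the data, leaving out sub-clusters led by a marker of another class and joining to the dopamine-like class a left-out cluster led by dopamine genes. Free RNA was subtracted at its upper limit in each class and rat. Counting intervals and floors cover counting error only. The fit was tested on simulated data. The members, lists and tests were chosen with earlier results of these data known. All 8 members are named, and of the other lists up to 4 genes per comparison with the smallest adjusted p. The 3 genes most like each of *Htr2c*, *Htr4* and *Htr2a* were named by correlation over sub-clusters, and 1 of them is not reported here.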

Additional observations from a re-analysis of the deposited data

Results flagged for a closer look

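Of 35 combinations of receptor and class with at least 10 UMIs and 4 or 5 rats, 7 had a rat far from the others. The rule flags about 1 in 20 by chance where values are normally distributed. Sparse counts are not, so the 7 are not read as an excess. In microglia, *Htr2c* was 7.08 UMIs per 10000 in rat 3 against 0.316 to 1.02 in the others, and *Htr4* was 1.15 against 0.0662 to 0.158. *Htr4* was 0.51 in the vascular nuclei of rat 1, from 7 UMIs in 27 nuclei, against 0.0758 to 0.118. The other 4 were in oligodendrocytes and rest on 0 to 6 UMIs of the rat: *Htr1b* at 0.0227 in rat 1 against at most 0.00404, and in rat 3 *Htr3a* at 0.0346 against at most 0.00755, *Htr7* at 0.0346 against at most 0.0113 and *Htr2a* at 0 against 0.0292 to 0.0384. Their causes were not tested.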

How the results depend on the processing

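*Htr2c* was lower in dopamine-like neurons, and the 3 receptors tested were higher in neurons than in glia, under every alternative in which they could be tested. The counts of receptors past the test were less stable. Dopamine-like against GABA-like neurons gave 2, with 1 in DESeq2's Wald test, without the replicate block, with free RNA subtracted, with thinned counts and with neurons typed by their own UMIs, 4 without a filter and 1 to 2 with a rat left out. Dopamine-like against glutamate-like neurons gave 2, with 1 without the replicate block, with free RNA subtracted, thinned, typed by their own UMIs or without sub-clusters led by a marker of another class, 3 without a filter and 1 to 3 with a rat left out. GABA-like against glutamate-like neurons gave 1, with 0 without the replicate block, with free RNA subtracted or typed by own UMIs, 2 without a filter, with at least 2000 UMIs, with doublets kept or with neuron classes alone, and 0 to 2 with a rat left out. Without the block, called genes of all 11736 in these 3 comparisons fell from 1867, 1484 and 602 to 743, 594 and 180. Thinning left 2 of the receptors testable. Among all pairs of classes, 54 differences became 83 without a filter, where all 8 receptors were tested, 29 with thinned counts, and 48 to 52 with a rat left out. The fit without a filter also gave smaller SEs, so its calls are less strict than those of the main fit. The share of neurons with any receptor was 73.2%, and 54.9% at 2 UMIs, 45.2% thinned and 70.3% to 79.8% with a rat left out. No fitted difference past the test changed sign. Causes were not tested, apart from the number of genes tested. For the receptors with few counts, depth allowed a level of 0.00477 UMIs per 10000 where none was counted in dopamine-like neurons.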
